A study of Homo sapiens with 4 samples.

Results

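Cyclins, cyclin-dependent kinases (CDKs), CDK inhibitors, the RB and E2F families and their close partners were described in HEK293 cells kept in high or low glucose. The list named 51 genes, and 50 of them had at least 1 array probe set annotated to that gene alone. CDKN2C signals were not analysed here. These 50 genes had 124 probe sets, of which 106 had a mean signal above the filter used for testing, and all 50 genes were among the 12242 genes tested. HEK293 is an established line of human embryonic kidney cells that carries adenoviral early genes, whose proteins bind the RB family and p53. High glucose cells had spent 7 days in DMEM with 450 mg/dl glucose and low glucose cells 7 days in DMEM with 100 mg/dl, both with FCS, and each condition had 2 arrays. The labels call these biological replicates without saying how cultures were kept apart, so p-values measure only the spread between these samples.

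A cyclin is the regulatory subunit that turns on its kinase. D cyclins with CDK4 or CDK6, and then E cyclins with CDK2, phosphorylate RB family proteins in G1, which releases E2F factors to transcribe genes for DNA synthesis. Cyclin A acts in S phase, and cyclin B with CDK1 drives entry into mitosis. INK4 proteins block CDK4 and CDK6, and CIP/KIP proteins such as p21 and p27 bind cyclin-CDK complexes more broadly.

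The largest differences among these genes were a rise of CCND1, cyclin D1, by 3.79-fold and a fall of CDKN1A, p21, by 3.87-fold in high glucose. CDK6, CDC25A, SKP2, CCNB1 and CKS2 were 1.79-fold to 2.27-fold higher, and CDKN1B, p27, and MYBL2, a transcription factor of the late cell cycle, were 1.76-fold and 1.96-fold lower. CDK1, RB1 and CCND2 did not pass the test in their brightest probe sets. Of the 50 genes, 22 were higher and 18 lower in high glucose and 10 did not pass (limma, adjusted p under 0.05). The shares over all genes tested were 24.3% higher and 33.3% lower, 57.6% in all. Among the 6121 genes with a signal above the median of those tested 69.4% were called, and 45 of the 50 regulators lay among these, with 37 called. A change of at least 1.5-fold was called for 14 regulators upward and 8 downward, against 10.8% and 19.3% of all genes. The median log2 difference was -0.04 over the regulators and -0.10 over all genes. After median centring 22 regulators were higher and 14 lower, against 33.1% and 23.2% of all genes, and the medians were 0.13 and 0.07. The arrays of the 2 conditions did not overlap for 46 of the 50 regulators and for 79.8% of all genes.

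**Figure D1:**
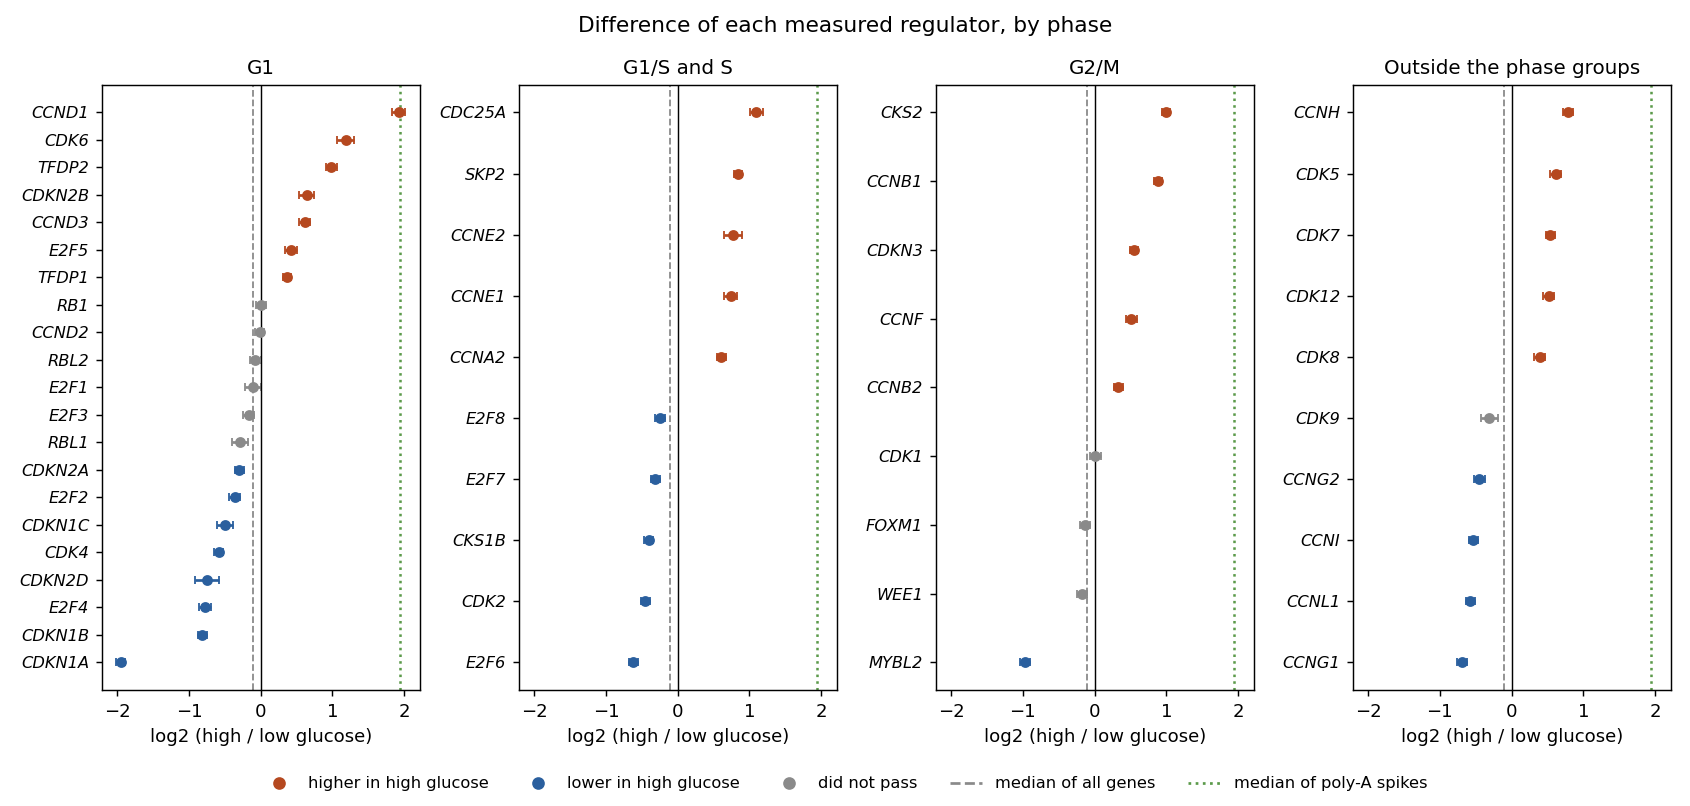
Log2 difference between high and low glucose (horizontal axis, high over low) for each of the 50 measured regulators, in panels by phase. Points are limma estimates from 2 arrays per condition and bars their standard errors, coloured by call. The dashed line is the median of all genes (-0.10) and the dotted line the median of the poly-A spikes (1.94), which lies above the CCND1 point (1.92).

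Certain controls also differed between conditions. Bacterial poly-A transcripts are spiked into RNA ahead of labelling, and all 24 of their probe sets had higher signals on both arrays of high glucose than on both of low glucose. Their median difference was 1.94 on the log2 scale (3.84-fold), and that of the 6 ribosomal RNA probe sets was 3.31-fold. No regulator rose by more than that spike median in its brightest probe set, though a dimmer probe set each of CCND1 and CDK6 did. The 18 hybridisation controls had a median signal of 486 on high glucose replicate 1 and 869 to 891 on the other 3 arrays. Without high glucose replicate 1, which leaves 1 array in that condition, CCND1 stood at 1.995 and CDKN1A at -1.917 log2 units. The part of the hybridisation controls in the results was not tested. The labels name no labelling batch, and one that followed the spikes could not be told apart from glucose. Of 8 HEK293 markers 7 had a probe set, and their summed signal was 20888 to 23538 in high and 19260 to 19690 in low glucose. Within that sum, VIM had 5567 and 5971 in high and 10580 and 11041 in low glucose, whereas KRT8 had 5545 and 6493 in high and 2845 and 2897 in low glucose and KRT18 8315 and 9775 in high and 4293 and 4309 in low glucose. The part of these shifts in the results was not tested. NEFL had 1354 and 1179 in high and 1442 and 1352 in low glucose, while PAX2 lay close to the filter and NEFM below it. LHX1 had 67.3 and 75.1 in high and 32.5 and 21.0 in low glucose, and passed the filter only through the high glucose arrays. Leukocyte markers summed to 17.4 to 53.4 in high and 16.5 to 54.6 in low glucose, with 0 of 3 past the filter, and hepatocyte and muscle markers had 0 of 4 each. Endothelial markers had 1 of 4, PECAM1, and fibroblast markers 2 of 4, summing to 516 to 521 in high and 322 to 348 in low glucose, with LUM and DCN below the filter. In bulk RNA, fewer cells in a phase and less RNA per cell cannot be told apart.

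In G1, the D cyclins and their kinases moved in different directions. CCND1 gave signals of 796 and 880 in high glucose, against 232 and 210 in low glucose. Both high glucose arrays lay far above both low glucose arrays, and the rise was 1.92 ± 0.09 log2 units (SE, adjusted p = 5.5e-06). A further CCND1 probe set rose by 2.41 ± 0.10, with 515 and 545 in high and 100 and 99.3 in low glucose. CCND3, cyclin D3, had 870 and 966 in high and 585 and 616 in low glucose. Its arrays did not overlap, and it rose by 0.61 ± 0.07 (adjusted p = 3.0e-04). CCND2, cyclin D2, had 2352 and 2449 in high and 2368 and 2481 in low glucose in its brightest probe set. These values interleaved, with a difference of -0.01 log2 units and a 95% interval of -0.15 to 0.12 (adjusted p = 0.85). Among its dimmer probe sets, a pair rose by 0.96 ± 0.11 and 0.97 ± 0.24, and the last stood at 0.17 and did not pass. The gene therefore had no single reading, and the mean of its probe sets stood at 0.52 (adjusted p = 0.0014).

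CDK6 gave 730 and 632 in high glucose, against 267 and 334 in low glucose. The conditions were well apart, and CDK6 rose by 1.18 ± 0.12 log2 units (adjusted p = 1.5e-04), with rises of 0.65 and 2.69 in dimmer probe sets. A last CDK6 probe set had 59.7 and 76.5 in high and 14.0 and 31.5 in low glucose, and passed the filter only through the high glucose arrays, so it is not counted as support. CDK4, which also pairs with D cyclins, had 4118 and 3985 in high and 5940 and 6232 in low glucose. It thus went the other way, lower on both high glucose arrays, and fell by 0.59 ± 0.07 (adjusted p = 2.2e-04), which was 0.42 after median centring. The poly-A spikes, 3.84-fold higher in high glucose, moved with the rises of CCND1, CCND3 and CDK6 and against the fall of CDK4, and their part in the result was not tested.

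All 3 CIP/KIP inhibitors fell in high glucose. CDKN1A gave 628 and 660 in high glucose, against 2548 and 2437 in low glucose. It had the largest fall of any regulator, 1.95 log2 units with an SE of 0.06 (adjusted p = 8.1e-07), and rested on 1 probe set. CDKN1B, which holds cyclin E and CDK2 inactive, had 1000.5 and 939 in high and 1690.2 and 1716 in low glucose. High glucose was again the lower condition, with a difference of -0.81 ± 0.06 (adjusted p = 2.9e-05). CDKN1C, p57, differed by -0.49 ± 0.11 (adjusted p = 0.0069), and 3 of its 4 probe sets past the filter were called lower. The spikes moved the other way, and their part in these falls was not tested. After median centring all 3 inhibitors remained called, at -1.78, -0.64 and -0.32.

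The INK4 inhibitors split. CDKN2B, p15, had 337 and 311 in high and 210 and 206 in low glucose. It rose by 0.64 ± 0.10 (adjusted p = 0.0012), with the arrays of the conditions apart, and its other probe set was below the filter. CDKN2D, p19, had 91.0 and 89.8 in high and 140 and 164 in low glucose, close to the dim end, and differed by -0.74 ± 0.17 (adjusted p = 0.0064). CDKN2A, which encodes p16 and, in another reading frame, ARF, lies beside CDKN2B on chromosome 9, with only noncoding RNA genes listed between them. Its signals were 2924 and 3098 in high and 3671 and 3719 in low glucose, so the neighbours moved in opposite directions. The CDKN2A difference was -0.30 ± 0.06 (adjusted p = 0.0044), its dimmer probe set past the filter fell by 0.29, and after median centring CDKN2A stood at -0.13 and did not pass. The difference between CDKN2A and CDKN2B was not tested.

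None of the 3 RB family genes passed in the brightest probe set. RB1, the retinoblastoma protein gene, had 528 and 552 in high and 532 and 547 in low glucose. The values interleaved, with a 95% interval of -0.16 to 0.16 log2 units. RBL2, p130, differed by -0.07 (interval -0.25 to 0.10) and RBL1, p107, by -0.29 (interval -0.55 to -0.03, adjusted p = 0.057). A dimmer RBL1 probe set was called lower, at -0.51 ± 0.16, and the mean of the probe sets was called lower for RBL1 (-0.36) and RBL2 (-0.25). For RB1 that mean (-0.51) rested on a dim probe set with 21.0 and 37.4 in high and 49.0 and 65.1 in low glucose, which passed the filter only through the low glucose arrays and was not called on its own (adjusted p = 0.053).

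Among the E2F factors of G1, E2F1, an activator, had 510 and 649 in high and 595 and 646 in low glucose. The conditions overlapped, and the difference of -0.11 log2 units had an interval of -0.37 to 0.16. Without high glucose replicate 2 it stood at -0.28 and just passed (adjusted p = 0.0497). A dimmer E2F1 probe set fell by 0.52, with 355 and 339 in high and 490 and 509 in low glucose. The mean of both E2F1 probe sets was called lower, at -0.32 (adjusted p = 0.011). E2F2 fell by 0.36 (adjusted p = 0.0065), which was not called after median centring (-0.19), and E2F3 stood at -0.17 with an adjusted p of 0.084. A dimmer E2F3 probe set pointed the other way, at 0.35, and did not pass either (adjusted p = 0.055). E2F4, a factor that works mainly with p107 and p130 as a repressor, had 315.2 and 315.3 in high and 563 and 515 in low glucose. It was lower on both high glucose arrays, with a difference of -0.77 ± 0.08 (adjusted p = 1.7e-04), but its other probe set stood at 0.30 and did not pass, and the mean of both was not called (-0.24). E2F5 rose by 0.42 (adjusted p = 0.0028).

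Of the DP partners of E2F, TFDP1 rose by 0.36 ± 0.06 (adjusted p = 0.0013). Its other probe sets stood at 0.09, not passing, and at 1.68, with 396 and 437 in high and 137 and 123 in low glucose. TFDP2 had probe sets that disagreed. The brightest gave 622 and 625 in high and 330 and 301 in low glucose, a rise of 0.98 ± 0.08 (adjusted p = 4.7e-05). A dimmer probe set gave 268 and 260 in high and 654 and 608 in low glucose, and fell by 1.26 log2 units. Both contrasts separated the arrays in full, so no direction is given for TFDP2 as a gene. A still dimmer one also fell, by 1.35, and the other stood at 0.04. In all, 7 of 21 measured G1 genes were higher, 8 lower and 6 did not pass, with a median of -0.11 log2 units. The share called was 71.4%, against 57.6% of all genes and 69.4% of brighter genes, where 17 of these 21 lie. TFDP2 is counted as higher here and in the counts over all regulators, by its brightest probe set alone.

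**Figure D2:**
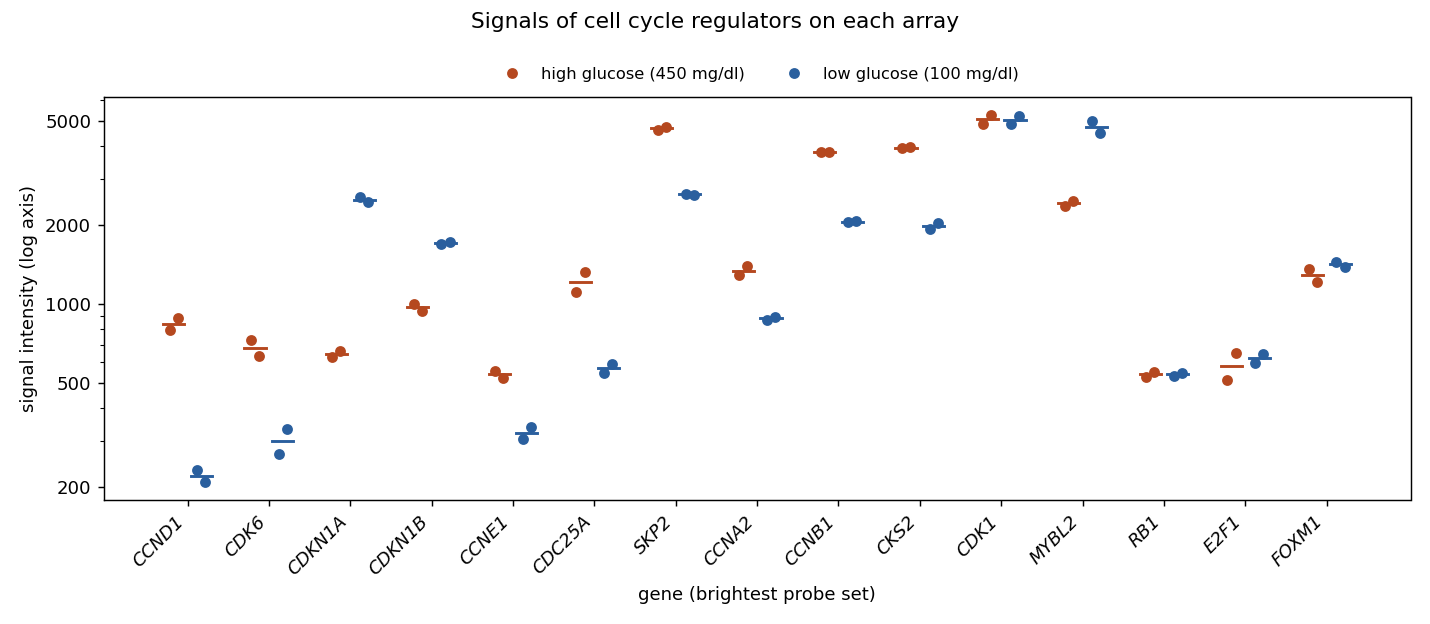
Signal intensity (vertical log axis) of 15 regulators on each array, with high glucose left of low glucose for each gene. Points are arrays, 2 per condition, and bars their means. CCND1 and CDKN1A separate the conditions in opposite directions, and CDK1 and RB1 interleave. Signals of different genes come from different probes and are not comparable.

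Regulators of the G1/S transition and S phase were all called, 5 higher and 5 lower, with a median of 0.18 log2 units. Over all genes 57.6% were called, 24.3% higher and 33.3% lower. The share was 69.4% among brighter genes, where all 10 of these lie. Each of the 5 that rose also passed the 1.5-fold threshold, as did 1325 of the 2970 genes called higher over all genes. That is 5 of these 10 regulators, against 10.8% of all genes tested. CCNE1, cyclin E1, had 554 and 522 in high and 306 and 340 in low glucose. Its paralog CCNE2 gave 794 and 598 in high glucose, against 404 and 401 in low glucose. Both E cyclins were therefore higher on each high glucose array, by 0.74 ± 0.09 (adjusted p = 2.8e-04) and 0.78 ± 0.13 (adjusted p = 0.0014), and a dimmer CCNE2 probe set rose by 0.59. CCNA2, cyclin A2, had 1287 and 1392 in high and 869 and 891 in low glucose. It rose by 0.60 ± 0.06 (adjusted p = 1.5e-04), and by 0.47 in its dimmer probe set.

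CDC25A, the phosphatase that removes inhibitory phosphates from CDK2, gave 1105 and 1325 in high and 546 and 588 in low glucose. Its lower high glucose array still exceeded both low glucose arrays, and the rise was 1.09 ± 0.09 (adjusted p = 5.9e-05), with rises of 1.36 and 0.50 in its other probe sets. SKP2, the F-box protein that marks p27 for degradation, had 4617 and 4742 in high and 2631 and 2596 in low glucose. It rose by 0.84 ± 0.06 (adjusted p = 2.5e-05), and by 1.03 and 0.43 in its other probe sets. CDKN1B transcript, which encodes its substrate p27, was lower on the same arrays. The spikes were higher on those arrays by 1.94 log2 units, more than any of these rises, and their part was not tested.

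The kinase CDK2 gave 1377 and 1340 in high and 1748 and 1963 in low glucose. It was lower on both high glucose arrays, with a difference of -0.45 ± 0.07 (adjusted p = 0.0011). Its other probe sets past the filter stood at 0.11 and -0.76, and neither was called. The one at -0.76 had 26.6 and 28.2 in high and 35.2 and 61.5 in low glucose. It passed the filter only through the low glucose arrays, so it is not counted as support. CKS1B, a CDK subunit that SKP2 needs to bind p27, fell by 0.40 ± 0.06 (adjusted p = 0.0011). E2F6, a repressor that acts without RB proteins, had 605 and 585 in high and 892 and 930 in low glucose. It fell by 0.61 ± 0.06 (adjusted p = 1.4e-04). E2F7 and E2F8, the atypical E2F repressors of S and G2, differed by -0.31 (adjusted p = 0.0037) and -0.24 (adjusted p = 0.020), and neither was called after median centring (-0.14 and -0.07). E2F8 also lost its call without either high glucose array (-0.25 and -0.23) or without low glucose replicate 1 (-0.19).

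Promoter letters are shown for CDC25A, which rose, and E2F1, which did not pass in its brightest probe set, because both hold an E2F motif. The windows run from 250 bases before to 50 bases after a RefSeq gene start on GRCh38.p14, at chr3:48188368-48188667 (minus strand) and chr20:33686336-33686635 (minus strand), written 5′ to 3′ along the gene. Capitals mark the E2F motif, searched as TTTCCCGC, TTTCGCGC, TTTGCCGC or TTTGGCGC on both strands, and the CCAAT box, searched as CCAAT on both strands.
CDC25A: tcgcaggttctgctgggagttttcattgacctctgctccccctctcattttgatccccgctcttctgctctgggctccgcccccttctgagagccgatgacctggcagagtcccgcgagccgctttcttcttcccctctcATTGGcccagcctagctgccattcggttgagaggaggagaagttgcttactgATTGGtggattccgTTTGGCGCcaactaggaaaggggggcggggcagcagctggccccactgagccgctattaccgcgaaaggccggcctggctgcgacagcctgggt
E2F1: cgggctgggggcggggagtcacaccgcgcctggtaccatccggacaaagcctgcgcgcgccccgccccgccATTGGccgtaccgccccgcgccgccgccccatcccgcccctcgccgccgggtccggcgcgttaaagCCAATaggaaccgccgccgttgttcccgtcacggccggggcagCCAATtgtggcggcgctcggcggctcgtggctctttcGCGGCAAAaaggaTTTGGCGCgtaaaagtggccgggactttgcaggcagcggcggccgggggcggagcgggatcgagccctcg
Promoters of 42 of the 51 genes were searched, and where a gene had several listed starts the first was taken. Those of CCND1, CCND2, CDKN1C, E2F5, CCNE2, CDK2, E2F8, WEE1 and FOXM1 were not searched. The motif counts by group leave these genes out, and whether they hold the motifs was not tested. The E2F motif was found in 5 of 18 G1 promoters, and these 18 include CDKN2C, whose signals were not analysed. It was found in 1 of 7 in the G1/S and S group, 1 of 7 G2/M promoters and 0 of 10 others. Of the 9585 promoters of tested genes 5.46% held the motif. Of the 7 genes with it, TFDP1 and CDC25A were higher, E2F2 was lower, and E2F1, E2F3, RBL1 and CDK1 did not pass in their brightest probe sets. A match describes letters and is not a binding site. Other forms of the E2F motif were not searched, so a window without a match is not shown to lack one.

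Among G2/M regulators 5 of 9 rose, 1 fell and 3 did not pass, with a median of 0.33 log2 units, or 0.50 after median centring. That is 66.7% called, against 57.6% of all genes and 69.4% of brighter genes, where all 9 lie. CCNB1, cyclin B1, gave 3793 and 3781 in high and 2044 and 2071 in low glucose. Replicates nearly coincided, and the rise was 0.88 ± 0.06 (adjusted p = 1.7e-05). Its dimmer probe set rose by 0.38. CCNB2, cyclin B2, rose less, by 0.33 ± 0.06 (adjusted p = 0.0030), and the mean of its probe sets just missed the threshold (adjusted p = 0.050). CDK1, their kinase, had 4847 and 5258 in high and 4839 and 5208 in low glucose. These values interleaved, with an interval of -0.17 to 0.18 log2 units, and 0 of 4 CDK1 probe sets were called.

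CKS2, a small subunit that docks CDK1 to phosphorylated substrates, had 3924 and 3965 in high and 1924 and 2033 in low glucose. The arrays were far apart, and CKS2 rose by 1.00 ± 0.06 (adjusted p = 1.3e-05). Its paralog CKS1B gave 2981 and 2790 in high and 3805 and 3816 in low glucose, so the paralogs were called in opposite directions, each on 1 probe set. CDKN3, a phosphatase that acts on CDKs, rose by 0.55 ± 0.06, and by 0.58 in its dimmer probe set. CCNF, an F-box cyclin that marks proteins for degradation in G2, rose by 0.51 ± 0.08, and by 0.79 in its dimmer probe set. WEE1, the kinase that holds CDK1 inactive, differed by -0.18 (adjusted p = 0.057), while its dimmer probe set fell by 0.61. The mean of both WEE1 probe sets was called lower, at -0.39 (adjusted p = 0.0013).

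The transcription factors of this phase did not rise. MYBL2, B-Myb, gave 2362 and 2471 in high and 4980 and 4483 in low glucose. It was lower on both high glucose arrays, with a difference of -0.97 ± 0.07 (adjusted p = 3.2e-05). FOXM1 gave 1364 and 1211 in high and 1441 and 1388 in low glucose. Its high glucose arrays were just below the low glucose ones, and the difference of -0.14 had an interval of -0.30 to 0.03 (adjusted p = 0.13). Without high glucose replicate 1, FOXM1 and WEE1 were called lower, at -0.22 and -0.26. The poly-A spikes rose with CCNB1, CKS2, CDKN3, CCNF and CCNB2 and by more (3.84-fold), and MYBL2 moved against them. Their part in these results was not tested.

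Promoters of the paralogs CKS2 and CKS1B, and of CCNB2 and CDK1, are shown because they share motifs while their transcripts were called differently. The windows lie at chr9:89310945-89311244 (plus strand), chr1:154974431-154974730 (plus strand), chr15:59104896-59105195 (plus strand) and chr10:60778081-60778380 (plus strand). Capitals mark CCAAT boxes, the E2F motif and the CHR, searched as TTTGAA on both strands, an element bound by the MuvB complex in late cell cycle genes.
CKS2: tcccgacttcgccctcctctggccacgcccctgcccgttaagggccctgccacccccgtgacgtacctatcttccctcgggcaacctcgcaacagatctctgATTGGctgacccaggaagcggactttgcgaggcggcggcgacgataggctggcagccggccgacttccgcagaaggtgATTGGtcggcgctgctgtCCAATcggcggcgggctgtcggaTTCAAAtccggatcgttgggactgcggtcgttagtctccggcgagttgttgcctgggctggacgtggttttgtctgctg
CKS1B: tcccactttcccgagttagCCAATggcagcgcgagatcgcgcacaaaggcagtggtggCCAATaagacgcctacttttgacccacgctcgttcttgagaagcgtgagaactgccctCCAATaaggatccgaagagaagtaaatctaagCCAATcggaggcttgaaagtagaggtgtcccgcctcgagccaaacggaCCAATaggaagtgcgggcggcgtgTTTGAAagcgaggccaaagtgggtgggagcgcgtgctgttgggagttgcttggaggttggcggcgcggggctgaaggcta
CCNB2: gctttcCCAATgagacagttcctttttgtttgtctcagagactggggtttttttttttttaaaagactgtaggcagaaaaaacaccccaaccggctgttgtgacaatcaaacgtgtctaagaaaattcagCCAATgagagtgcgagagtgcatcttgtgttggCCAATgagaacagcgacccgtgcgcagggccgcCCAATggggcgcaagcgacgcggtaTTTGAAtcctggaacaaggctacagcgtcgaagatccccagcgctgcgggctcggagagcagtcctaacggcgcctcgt
CDK1: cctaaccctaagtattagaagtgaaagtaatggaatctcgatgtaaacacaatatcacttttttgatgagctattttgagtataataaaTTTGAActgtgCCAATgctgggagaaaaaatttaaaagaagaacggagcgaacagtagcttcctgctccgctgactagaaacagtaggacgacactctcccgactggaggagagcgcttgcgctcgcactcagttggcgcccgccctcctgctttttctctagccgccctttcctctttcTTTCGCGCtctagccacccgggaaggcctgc
CKS2 held a CHR at -29 and 3 CCAAT boxes, CKS1B a CHR at -30 and 5 CCAAT boxes, and CCNB2 a CHR at -29 and 4 CCAAT boxes, counted from the gene start. The CDK1 window, at the first of 2 listed starts, held a CHR at -161, 1 CCAAT box and an E2F motif at 20. A CHR was found in 5 of 7 G2/M promoters, CCNB2, CDK1, CKS2, CCNF and CDKN3, against 9.38% of promoters of tested genes. CCAAT boxes were found in 6 of 7, against 36.8%. Of the 8 regulators with a CHR, 4 were higher, 1 was lower, CKS1B, and 3 did not pass, CDK1, RBL2 and E2F3. The windows of CCNB1 and MYBL2 held no TTTGAA.

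Cyclins and CDKs outside these phases were called in 9 of 10 cases, 5 higher and 4 lower, with a median of 0.04 log2 units. Over all genes 57.6% were called, 24.3% higher and 33.3% lower, and the share was 69.4% among brighter genes, where 9 of these 10 lie. CCNH, cyclin H of the CDK-activating kinase, had 1277 and 1207 in high and 751 and 689 in low glucose. Its arrays did not overlap, and it rose by 0.79 ± 0.07 (adjusted p = 6.2e-05). Its kinase CDK7 rose by 0.54 ± 0.06 (adjusted p = 2.7e-04), and MNAT1, a further subunit, rose by 0.53 ± 0.14 (adjusted p = 0.012). MNAT1 was added after its value was seen. The poly-A spikes were 1.94 log2 units higher on the same arrays, and their part was not tested. In the Mediator kinase module, CDK8 rose by 0.39 and its cyclin CCNC by 0.48, whereas CDK19, the paralog of CDK8, differed by -0.78 ± 0.09. Of the dimmer CDK8 probe sets, one rose by 0.53 and the other stood at 0.0003 and did not pass.

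For the kinases of transcription elongation the readings were less uniform. CDK12 rose by 0.52 ± 0.08 (adjusted p = 8.0e-04) with 3 of 6 probe sets past the filter called higher and 0 lower, while its cyclin CCNK differed by -0.09 and did not pass. CDK9 differed by -0.31 (adjusted p = 0.053) and was called lower without high glucose replicate 1 (-0.44) or without low glucose replicate 1 (-0.41). Its cyclin CCNT1 rose by 0.22 (adjusted p = 0.017), while CCNT2 stood at 0.06 and did not pass. CDK13 rose by 0.75 ± 0.06 (adjusted p = 3.6e-05). CCNL1, a cyclin of RNA splicing, differed by -0.57 ± 0.06 (adjusted p = 2.1e-04), and its paralog CCNL2 by -0.84 ± 0.06 (adjusted p = 3.3e-05). CDK5, a kinase best known from neurons, had 599 on each high glucose array and 371 and 412 in low glucose. That is a rise of 0.61 ± 0.08 (adjusted p = 4.4e-04) with no overlap.

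The G cyclins fell. CCNG1, a p53 target, had 4890 and 4839 in high and 7701 and 8057 in low glucose. It was lower on both high glucose arrays, with a difference of -0.70 ± 0.07 (adjusted p = 1.2e-04). CCNG2, linked to growth arrest, differed by -0.45 ± 0.08 (adjusted p = 0.0024), and 4 of its 4 probe sets past the filter were called lower, by up to 0.98 log2 units. CCNI, cyclin I, had 3814 and 3954 in high and 5442 and 5798 in low glucose. Its 2 brighter probe sets fell, by 0.53 and 0.40, while the dimmest had 171 and 200 in high and 88.1 and 83.2 in low glucose and rose by 1.11. The mean of the CCNI probe sets stood at 0.06 and was not called.

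**Figure D3:**
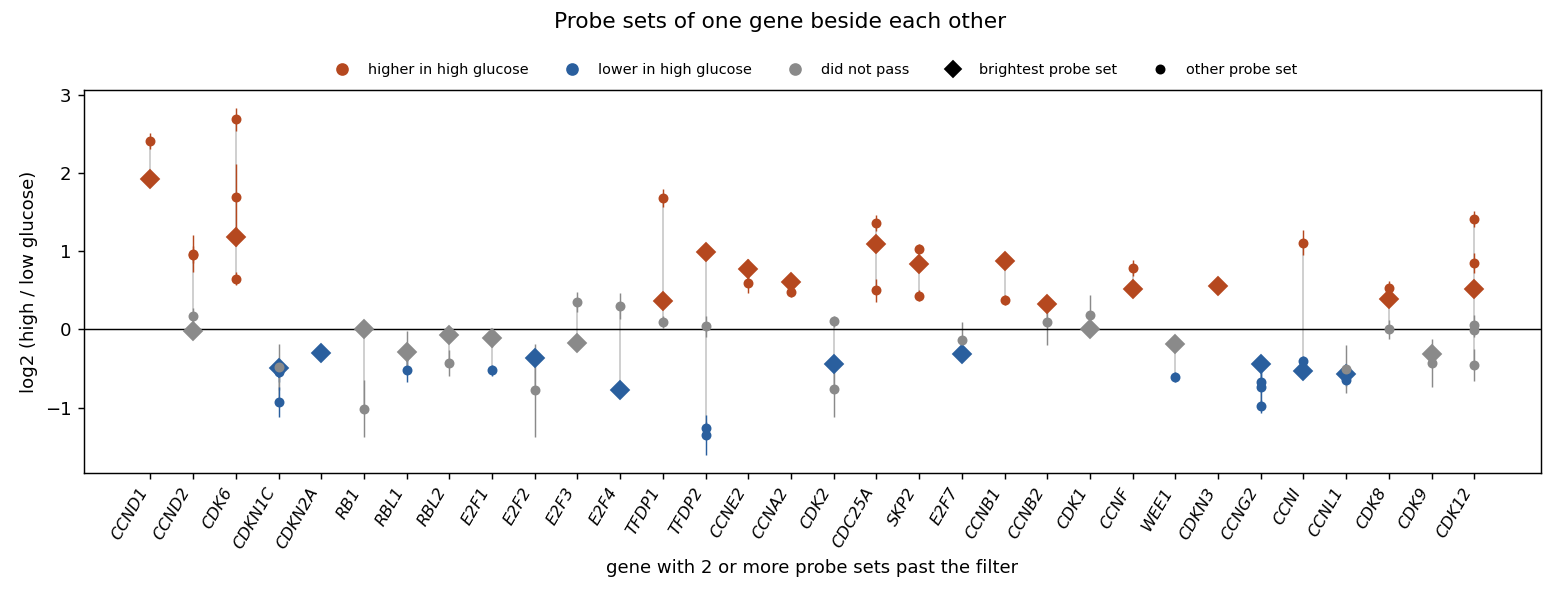
Log2 difference between high and low glucose (vertical axis, high over low) for every probe set past the filter of the 32 regulators with 2 or more. Diamonds are the brightest probe set, circles the others, bars standard errors of the probe set fit, and colours the call. TFDP2 and CCNI hold probe sets called in opposite directions, while every probe set shown of CDC25A and SKP2 is called higher and every one of CCNG2 lower.

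Read by probe set, 42 of the 106 probe sets of these genes were higher and 31 lower. Of the 106, 4 passed the filter through the arrays of 1 condition only, 1 each of CDK6, RB1, CDK2 and CDK9, and among these the CDK6 one was called. Over all 27307 probe sets tested 50.4% were called, 23.1% higher and 27.2% lower. Of the regulators, 18 rested on 1 probe set past the filter, among them CDKN1A, CDKN1B, CDK4, CCNE1, CKS1B, CKS2, FOXM1 and MYBL2. Of the 32 with several, 11 had every probe set called in the same direction and 2 had calls in opposite directions. Genes with no probe set called, such as CDK1 and RB1, are not among the 11.

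Other genes of the pathway were taken from 7 lists, whose counts stand against 24.3% higher and 33.3% lower over all genes. Their counts after median centring stand against 33.1% higher and 23.2% lower. In the list of late genes under MuvB, MYBL2 and FOXM1, 15 of 22 rose, 1 fell and 6 did not pass, with a median of 0.46 log2 units. CENPE and KIF20A, mitotic kinesins, rose by 1.03 ± 0.07 and 1.02 ± 0.07, and the mitotic kinases PLK1 and AURKA by 0.88 ± 0.10 and 0.85 ± 0.05. The member that fell was CDC25B, by 0.70 log2 units. The spikes were higher on the same arrays by 1.94, and their part was not tested. In the MuvB core and RB cofactor list 1 of 10 rose and 5 fell (median -0.34), among them LIN9 (-0.56), DYRK1A (-0.53), LIN52 (-0.41) and RBBP4 (-0.39), and after median centring 2 rose and 2 fell.

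E2F target genes of G1/S were divided, with 7 of 21 higher, 3 lower and 11 not passing (median 0.00). RRM2, a subunit of ribonucleotide reductase, GINS2 and MCM5, of the replicative helicase, rose by 0.75 ± 0.06, 0.72 ± 0.05 and 0.71 ± 0.06. CDT1, which loads that helicase, gave 880 and 889 in high and 2497 and 2221 in low glucose and fell by 1.41 log2 units. Of ubiquitin ligase subunits in the SCF, CRL4 and APC/C list 8 of 23 rose and 2 fell (median 0.09), 43.5% called against 57.6% of all genes. The 4 with the largest change were all APC/C subunits, ANAPC7 (0.89), CDC23 (0.69), CDC26 (0.69) and ANAPC10 (0.64). ANAPC4 (0.63), CDC27 (0.40) and ANAPC5 (0.26) also rose. ANAPC2 (0.07), ANAPC11 (-0.04) and CDC16 (-0.12) did not pass, and FZR1 (-0.33) was lower. After median centring 14 of the list rose and 0 fell, against 33.1% and 23.2% of all genes.

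In the p53 target list 2 of 11 were higher, 4 lower and 5 did not pass (median -0.24), so 54.5% were called, near the 57.6% of all genes. SESN2, which the ATF4 stress pathway also induces, and DDB2, a DNA repair factor, differed by -1.56 ± 0.07 and -0.98 ± 0.06. ZMAT3 differed by -0.41 and MDM2, the ubiquitin ligase of p53, rose by 0.39. After median centring 5 were higher and 4 lower, against 33.1% and 23.2% of all genes. Of 18 other cyclins and CDKs 5 rose and 6 fell (median -0.12), again near that share at 61.1% called, with CDK18 at -1.28, CCNA1 at 0.89, CCNL2 at -0.84 and CDK19 at -0.78. CDK phosphorylation and checkpoint genes rose in 3 of 8 cases and fell in 2 (median 0.01), 62.5% called, with ATR, a checkpoint kinase, at 0.88, CDC14B at 0.57, PKMYT1, a kinase related to WEE1, at -0.50 and CCNDBP1 at -0.39.

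**Figure D4:**
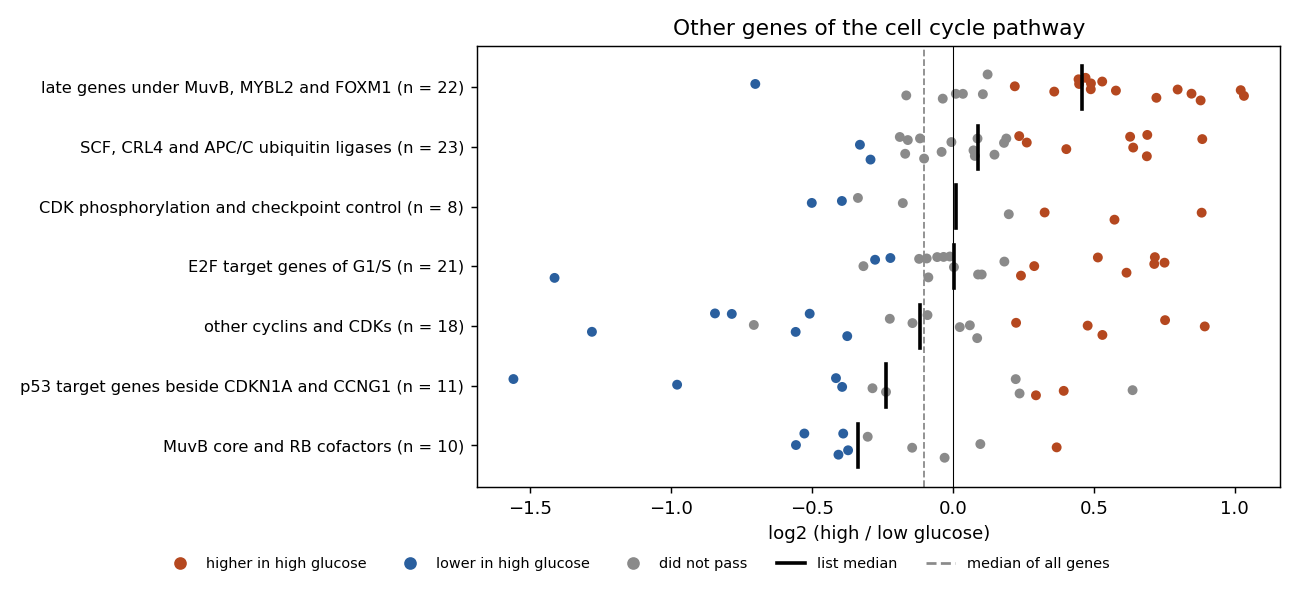
Log2 difference between high and low glucose (horizontal axis, high over low) of the measured genes of 7 other cell cycle lists. Points are genes from the limma fit over 4 arrays, coloured by call, and vertical bars list medians. The late gene list has its median at 0.46 and 1 gene called lower, and the dashed line marks the median of all genes (-0.10).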

How the data were processed

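Gene expression was measured on 4 single-colour Affymetrix arrays. The values deposited by the authors are signal intensities on a linear scale, made with GCOS per the submitters' processing notes. The 2% trimmed mean was the same on each array (200.02), so a shift shared by most transcripts cannot be seen. Other processing steps were not given in the sources used here.

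The deposited intensities were log2-transformed, 62 control probe sets were left out, and 27307 probe sets with a mean signal of at least the median (32.9) were kept. Each gene was represented by its brightest probe set annotated to it alone. The contrast of high over low glucose was fitted with limma 3.58.1 under R 4.3.3 (lmFit, then eBayes with an intensity trend). P-values of the two-sided test were adjusted by Benjamini-Hochberg over all 12242 genes, or over all probe sets in the probe set fit, with a threshold of 0.05, and errors are standard errors. The fit was tested on simulated data, and the number of arrays limits the precision.

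The regulators, phase groups and lists were chosen with earlier results of these data known. Per-array signals are given for called genes that changed at least 1.5-fold, for genes with opposite probe set calls and for a preset set of 12, and up to 4 called genes per list are named by size of change. MNAT1, CCNC, CCNK, CCNT1, CCNT2, CDK13, CDC25B and signals beyond that rule were chosen after their values were seen. Same-numbered arrays had uncorrelated deviations (r = -0.004 across genes), so numbers were not taken as pairs. Alternatives covered normalization, filter, pseudocount, probe set choice, trend, replicate block and each array left out.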

Additional observations from a re-analysis of the deposited data

How the results depend on the processing

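Of the 40 regulators called, 32 kept their call and direction under each alternative that measured them, 22 of these under 14 and 10 under 13, since those 10 (among them CDKN1A, CDK4, SKP2 and CKS2) have past the filter only probe sets marked _x_at or _s_at. A further 6 lost the call under some (CDKN2A, E2F2, E2F4, E2F7, E2F8 and CCNB2). TFDP2 and CCNI reversed, to -0.40 and 0.0588 log2 units with the mean of probe sets, and TFDP2 to -1.26 without the marked probe sets. Among genes that did not pass, CCND2 changed sign to a called rise of 0.52 with the mean of probe sets (adjusted p = 0.0014), and the other sign changes were not called. After median centring CCND2 stood at 0.16, RB1 at 0.17, RBL2 at 0.10, E2F1 at 0.0618, E2F3 at 0.00294 and FOXM1 at 0.0318, and with the mean of probe sets E2F3 stood at 0.0921. With 1 array left out CCND2 lay at -0.0476 to 0.0193, RB1 at -0.0314 to 0.0313, E2F1 at -0.281 to 0.065 and CDK1 at -0.0508 to 0.0667, none of the CCND2, RB1 or CDK1 values being called. Among counts, quantile normalization gave 3 lower G2/M genes and 3 lower MuvB genes. Median centring gave 3 lower S genes, 1 lower E2F target, 2 higher and 2 lower MuvB genes, 5 higher p53 targets, and 14 higher and 0 lower ubiquitin ligase genes (SCF list). Over all genes it gave 33.1% higher and 23.2% lower. Without a filter 1 p53 target was higher and 1 SCF gene lower, and at a filter of 100 signal units 2 G2/M genes were lower. The mean of probe sets gave 2 lower G2/M genes, 4 lower CDK phosphorylation genes and 2 higher MuvB genes. Without the marked probe sets 3 genes outside the phases, 3 other cyclins and 0 p53 targets were higher, and 0 CDK phosphorylation genes, 0 E2F targets and 2 MuvB genes were lower. Without the trend 2 other cyclins and 1 p53 target were higher and 1 SCF gene was lower. The replicate block gave 2 lower G2/M genes, since WEE1 was then called, and changed no other regulator's call. The cause of these changes was not tested. With each array left out in turn, 2472 to 2717 of all genes were higher and 3404 to 3541 lower, and of the regulators 22 were higher and 18 to 20 lower. By group, these fits called 7 G1 genes higher and 8 to 9 lower, 5 S genes higher and 4 to 5 lower, 5 G2/M genes higher and 1 to 3 lower, and 5 others higher and 4 to 5 lower. In the lists they called 2 to 3 CDK phosphorylation genes higher and 2 to 3 lower, 6 to 7 E2F targets higher and 2 to 3 lower, 14 to 15 late genes higher and 1 lower, and 1 MuvB gene higher and 3 to 5 lower. They called 3 to 5 other cyclins higher and 5 to 6 lower, 1 to 3 p53 targets higher and 4 to 5 lower, and 6 to 10 SCF genes higher and 1 to 3 lower.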
